A study of Homo sapiens with 2 samples.

Results

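Aldehyde dehydrogenases form a family of enzymes, and 10 of their genes are described here in LP-1 cells with added HIF-2α, set against cells with the empty vector. The genes were ALDH7A1, ALDH1A1, ALDH1B1, ALDH2, ALDH3A2, ALDH4A1, ALDH5A1, ALDH6A1, ALDH9A1 and ALDH16A1. They were taken by gene symbol, each from probe sets annotated to that symbol alone, which gave 11 probe sets for 10 of the 18377 genes measured. ALDH7A1 was the gene around which the set was put together, because of its large difference between the same 2 arrays, so its values are a description and carry no test. All 10 genes were kept whatever their signal.

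LP-1 is an established human multiple myeloma cell line, a cancer line of plasma cells. The HIF2A cells had been infected with pRUF-IRES-GFP-HIF2A and stably overexpressed full-length human HIF-2α. This product of EPAS1 is a subunit of a transcription factor that is stable when oxygen is low. The vector control cells carried pRUF-IRES-GFP without that cDNA. The labels do not say whether either line was a clone or a pool, nor at which oxygen level it was grown. Total RNA of each line was measured on 1 whole-transcript Affymetrix array, so no test, SE or p-value could be had, the number of arrays limits the precision, and the differences compare these 2 arrays.

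The signals are log2 values per probe set, with a median of 4.0 in the HIF2A cells and 4.02 in the vector control cells. EPAS1 was at 9.05 in the HIF2A cells and 3.7 in the vector control cells. Olfactory receptor genes, which myeloma cells have little reason to express, served as a measure of background, with 95th percentiles of 3.58 in the HIF2A cells and 3.59 in the vector control cells. Of 8 plasma cell markers, SLAMF7 was at 4.24 in the HIF2A cells against 6.63 in the vector control cells, and TNFRSF17 at 7.68 against 8.71. As HIF2A minus vector control, the 8 had a median of -0.095, the highest at 0.44. All 8 lay above the olfactory receptor level in both arrays. Of 20 markers of B, T, myeloid and stromal cells and hepatocytes, 7 lay above it in the HIF2A cells and 9 in the vector control cells, none of them higher than 4.59 in the HIF2A cells or 4.72 in the vector control cells. The 11469 genes whose brighter array reached 4.01 are called past the filter, and their differences, HIF2A minus vector control, had a median of 0.03 and a robust SD of 0.34 log2 units.

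Aldehyde dehydrogenases oxidise aldehydes to carboxylic acids, with NAD+ or NADP+ as the electron acceptor. Their substrates arise in the breakdown of amino acids, amines, alcohols, retinoids and lipids, and many of these aldehydes are reactive and damage proteins and DNA. Several of the enzymes work in mitochondria, among them those encoded by ALDH2, ALDH1B1, ALDH4A1, ALDH5A1 and ALDH6A1. HIF subunits bind DNA as pairs of an alpha and a beta subunit at short elements built around the letters ACGTG or GCGTG.

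The promoters are shown for the members that were furthest apart between the arrays and had a RefSeq promoter entry, and for ALDH3A2, whose second start site has the most HIF core letters. Each line gives the 250 bases before an annotated start site, 5′ to 3′ on the gene's strand, from RefSeq on GRCh38.p14. Capitals mark the HIF core (ACGTG or GCGTG), the CCAAT box (CCAAT) and the GC box (GGGCGG), each searched on both strands. The positions are chr5:126595220-126595469 for ALDH7A1, chr1:18902556-18902805 for the first of the 2 ALDH4A1 entries and chr14:74084454-74084703 for ALDH6A1, all on the minus strand, and chr17:19648501-19648750 on the plus strand for the second of the 2 ALDH3A2 entries.
ALDH7A1: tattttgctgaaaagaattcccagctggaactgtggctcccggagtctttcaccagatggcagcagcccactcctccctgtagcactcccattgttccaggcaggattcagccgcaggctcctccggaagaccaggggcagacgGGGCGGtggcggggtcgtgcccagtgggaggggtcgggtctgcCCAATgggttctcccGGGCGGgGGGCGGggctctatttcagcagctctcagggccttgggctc
ALDH4A1: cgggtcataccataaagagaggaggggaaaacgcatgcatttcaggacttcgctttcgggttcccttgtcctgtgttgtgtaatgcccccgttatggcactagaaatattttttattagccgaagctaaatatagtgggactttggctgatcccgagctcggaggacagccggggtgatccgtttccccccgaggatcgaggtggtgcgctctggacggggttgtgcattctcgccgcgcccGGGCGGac
ALDH6A1: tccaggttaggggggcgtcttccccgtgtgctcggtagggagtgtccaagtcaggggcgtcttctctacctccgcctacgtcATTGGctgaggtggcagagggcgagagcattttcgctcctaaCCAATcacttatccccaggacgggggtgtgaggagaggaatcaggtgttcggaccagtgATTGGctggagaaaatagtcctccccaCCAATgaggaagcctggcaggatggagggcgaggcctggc
ALDH3A2: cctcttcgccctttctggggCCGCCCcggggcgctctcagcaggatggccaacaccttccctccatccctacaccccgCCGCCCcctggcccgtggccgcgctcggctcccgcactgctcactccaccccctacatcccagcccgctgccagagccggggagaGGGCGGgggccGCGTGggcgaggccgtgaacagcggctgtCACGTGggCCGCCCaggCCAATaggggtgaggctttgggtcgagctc

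Promoter entries were found for 8 of the 10 members, 10 entries in all. The HIF core stood in 3 of these 10 entries, those of ALDH1B1, ALDH5A1 and the second of ALDH3A2, and in 43.2% of the 35116 promoter entries of all genes. The ALDH7A1 window held 0 matches to the HIF core, 1 CCAAT box and 3 GC boxes, of which 2 lay within the last 48 bases before the start. The ALDH6A1 window held 4 CCAAT boxes, 2 in each orientation, and the ALDH4A1 window 1 GC box. In the ALDH3A2 window the letters CACGTG hold the HIF core on both strands, which makes 2 of its 3 matches overlap. A CCAAT box stood in 5 and a GC box in 6 of the members' 10 entries, and in 11240 and 14973 of the 35116 entries. The GC content of the ALDH7A1 window was 64.0% and that of the ALDH1A1 window 38.4%, beside a median of 58.0% over all entries. A match is a stretch of letters, and its absence concerns this window alone.

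ALDH7A1 was the most different member, followed by ALDH2, and both were lower in the HIF2A cells. ALDH4A1 and ALDH6A1 were the 2 members at least 1.5-fold higher, and the other 6 lay within 1.5-fold on the deposited signals. Over the 10 members 4 were higher, 5 lower and 1 equal, with a median difference of -0.09 beside 0 over all 18377 genes. ALDH1A1, among the 6 and the 5 lower, was below the olfactory receptor level in both arrays, so its difference is not a measured one. Over the 9 members past the filter 4 were higher, 4 lower and 1 equal, with a median of 0. At least 2-fold lower were 2 members, and 0 were at least 2-fold higher. Among all 18377 genes, 0.473% were at least 2-fold lower and 0.441% at least 2-fold higher, and 3.37% were at least 1.5-fold lower and 3.81% at least 1.5-fold higher. Past the filter these shares were 0.732% and 0.706% at 2-fold, and 4.76% and 5.67% at 1.5-fold. Because the members were chosen on the same contrast, nothing is read from their counts.

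**Figure D1:**
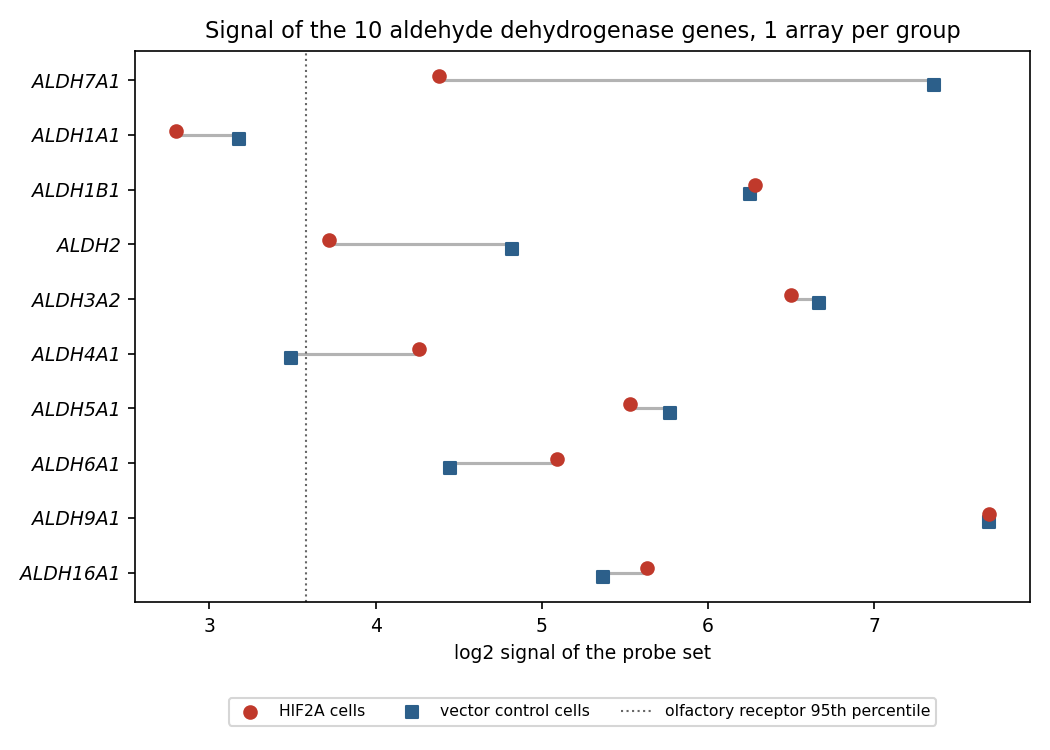
Log2 signal (horizontal axis) of the brightest probe set of each of the 10 genes, with a circle for the HIF2A cells, a square for the vector control cells and a dotted line at the olfactory receptor 95th percentile of the HIF2A cells, 3.58. ALDH7A1 spans 4.38 to 7.36, ALDH1A1 lies left of the line in both arrays, and ALDH9A1 is at 7.69 in both; signals of different probe sets are not comparable in level.

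ALDH7A1 encodes antiquitin, which oxidises alpha-aminoadipic semialdehyde in the breakdown of lysine, and whose loss in people causes pyridoxine-dependent epilepsy. Its signal was 4.38 in the HIF2A cells, against 7.36 in the vector control cells. The difference of -2.98 log2 units, or 7.89-fold lower, ranked 1st from the bottom of the 11469 genes past the filter. Of the genes of similar mean signal, the same 10% of all those past the filter, 95% lay between -0.75 and 0.73. In the HIF2A cells ALDH7A1 still stood above the olfactory receptor level of 3.58. Fewer cells with the transcript and less of it per cell cannot be told apart in RNA of a whole culture. The value rests on 1 probe set. RefSeq lists 4 ALDH7A1 pseudogenes, none with a probe set of its own here, and cross-hybridization was not analysed here.

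**Figure D2:**
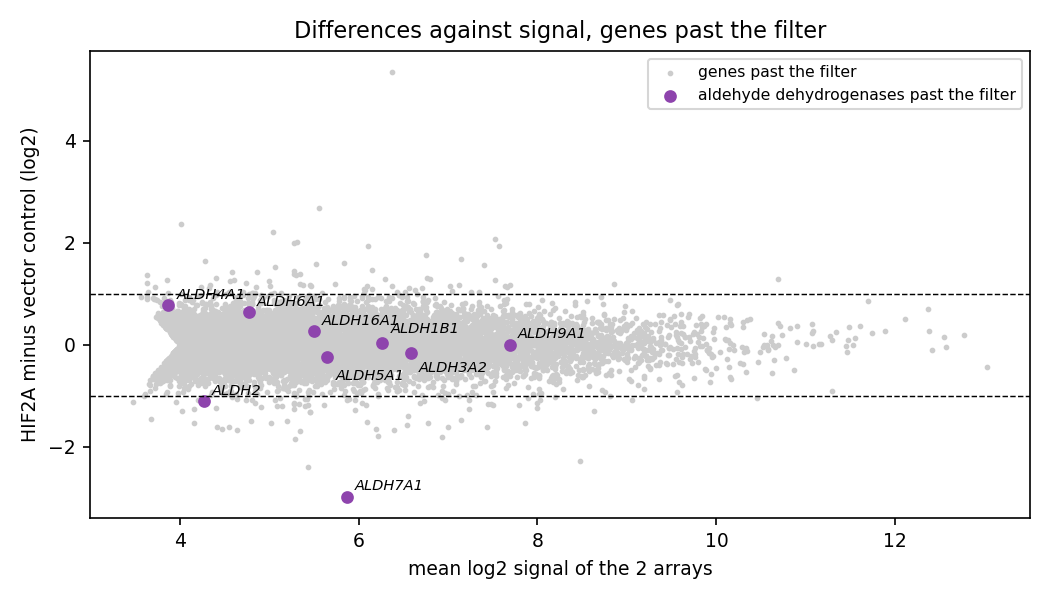
Difference, HIF2A minus vector control in log2 units (vertical axis), against the mean log2 signal of the 2 arrays (horizontal axis), for the 11469 genes past the filter in grey and 9 aldehyde dehydrogenase genes in purple. Dashed lines mark 2-fold; ALDH7A1 at -2.98 and ALDH2 at -1.10 lie below the lower line, and the other 7 lie between the lines.

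The genes with the difference nearest to that of ALDH7A1 were SLAMF7, a plasma cell surface receptor gene, the annexin partner gene S100A10 and the metallothionein gene MT1X. SLAMF7 had 4.24 in the HIF2A cells against 6.63 in the vector control cells, and S100A10 had 7.33 against 9.61. MT1X had 4.37 against 6.22. Their differences of -2.39, -2.28 and -1.85 each fell short of that of ALDH7A1, by 0.59, 0.70 and 1.13 log2 units. Likeness here is closeness of a single difference over 2 arrays.

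ALDH7A1 differed from its neighbours on chromosome 5, most of which were higher in the HIF2A cells. The 3 nearest genes past the filter on one side, CEP120, PPIC and SNX2, had differences of 0.41, -0.33 and 0.47, and those on the other, PHAX, LMNB1 and MARCHF3, had 0.71, 0.23 and -0.30. Of the 20 nearest, 14 were higher and 6 lower in the HIF2A cells. CHSY3 and DMXL1 each lay below the olfactory receptor level in 1 array, and against that level their differences were at most -0.54 and at least 0.64 log2 units. With those bounds the 20 ran from -0.54 for CHSY3 to 0.79 for FEM1C, and on the deposited signals none was at least 2-fold apart. Across chromosome 5, 337 of 454 genes past the filter were higher and 115 lower, with 13 at least 2-fold higher and 1, ALDH7A1, at least 2-fold lower. The median over chromosome 5 was 0.28. Over all 11469 genes past the filter, 6035 were higher and 5291 lower, with a median of 0.03. At least 2-fold higher were 0.706% of them, and 0.732% at least 2-fold lower. For the other 9 members the median over 20 neighbours lay between -0.10 and 0.08.

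**Figure D3:**
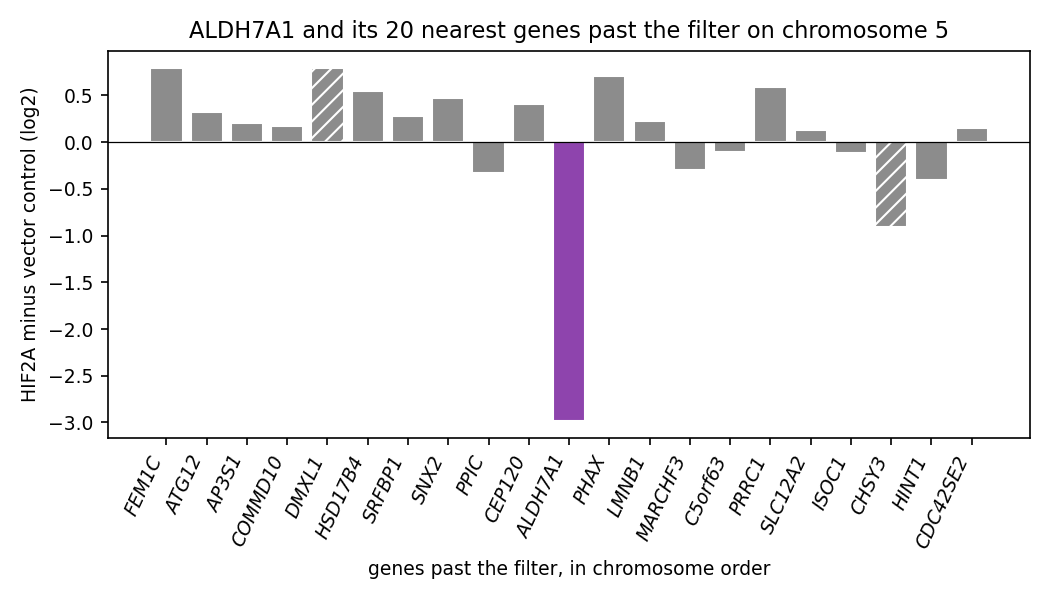
Difference, HIF2A minus vector control in log2 units (vertical axis), of ALDH7A1 in purple and the 10 nearest genes past the filter on each side in grey, in chromosome order (horizontal axis). ALDH7A1 reaches -2.98 and FEM1C 0.79; the hatched bars, DMXL1 and CHSY3, have 1 array below the olfactory receptor level, so that their size is not a measured difference.

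The other genes of lysine breakdown that passed the filter lay within 1.5-fold. Of 17 listed, 13 passed the filter, with 3 higher, 9 lower and 1 equal in the HIF2A cells, and a median of -0.12 beside 0.03 over all genes past the filter. That median was -0.02 without a filter and -0.005 after subtracting the median of 20 neighbours from each gene, so no direction is given for the list. None of the 13 was at least 1.5-fold apart, beside 4.76% lower and 5.67% higher over all genes past the filter. With so few genes, nothing is read from this count or from the like counts of the lists below. GCDH, the mitochondrial glutaryl-CoA dehydrogenase gene, was lowest with 5.67 in the HIF2A cells against 6.22 in the vector control cells, a difference of -0.55. DLD, a shared subunit of 2-oxoacid dehydrogenase complexes, had -0.38, and the hydroxylysine kinase gene HYKK had -0.35. The highest were PHYKPL, a phospholyase gene of hydroxylysine breakdown, at 0.45, OGDH at 0.21 and ETFB at 0.12. The nearest genes past the filter around PHYKPL, on chromosome 5, had a median of 0.24. Those around OGDH and ETFB had -0.41 and 0.075, and those around GCDH, DLD and HYKK had 0, -0.135 and 0.055. AASS, the gene of the enzyme that begins the mitochondrial route to the substrate of ALDH7A1, had 4.95 in the HIF2A cells against 4.96 in the vector control cells and was singled out after its value was seen.

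ALDH2 encodes the mitochondrial enzyme that clears acetaldehyde after alcohol intake, and ALDH1B1 encodes a close mitochondrial relative. ALDH2 had a signal of 3.72 in the HIF2A cells, against 4.82 in the vector control cells, a difference of -1.10 or 2.14-fold lower. Its signal in the HIF2A cells lay just above the olfactory receptor level of 3.58, and 95% of genes of similar mean signal lay between -0.60 and 0.66. ALDH2 passed the filter through the vector control cells alone. With 32 added to every linear signal, an offset that shrinks the differences of dim genes, its difference came to -0.42, so its place among genes at least 2-fold lower depends on how dim signals are treated. ALDH1B1 had 6.28 in the HIF2A cells and 6.25 in the vector control cells, a difference of 0.03.

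Few of the alcohol dehydrogenase and aldehyde or carbonyl reductase genes had a signal past the filter. Of 15 measured, 6 passed it, 3 higher and 3 lower, with a median of 0.02 and none at least 1.5-fold apart. The median was -0.17 over all 15 and -0.32 when the filter was lowered to the 25th percentile, so the list has no settled direction. The formaldehyde-clearing gene ADH5 had 0.15, as did the reductase gene AKR7A2, and the carbonyl reductase gene CBR3 had 0.13. AKR1C1 had -0.55, the esterase gene ESD -0.32 and CBR1 -0.09. AKR1C1 had 3.61 in the HIF2A cells, just above the olfactory receptor level of 3.58, against 4.16 in the vector control cells. It passed the filter through the vector control cells alone. AKR1C1 has near-identical relatives, and cross-hybridization was not analysed here.

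ALDH4A1, ALDH5A1 and ALDH6A1 encode mitochondrial enzymes of amino acid breakdown. ALDH4A1, which makes glutamate from the proline product pyrroline-5-carboxylate, had 4.26 in the HIF2A cells against 3.49 in the vector control cells. The vector control value lies below the olfactory receptor level, so ALDH4A1 is given as at least 1.59-fold higher, and it passed the filter through the HIF2A cells alone. As a log2 value that bound is 0.67, and a lower bound cannot place the difference within a range. On the deposited signals the difference was 0.77, at the upper edge of the -0.72 to 0.77 that held 95% of genes of similar signal.

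ALDH6A1 encodes methylmalonate semialdehyde dehydrogenase, which acts late in the breakdown of valine and thymine. Its brighter probe set had 5.09 in the HIF2A cells against 4.45 in the vector control cells, 1.56-fold higher. The dimmer probe set had 3.07 against 2.46, below the olfactory receptor level in both arrays. No difference is given for it. The difference of 0.64 on the brighter probe set lay within the -0.64 to 0.78 that held 95% of genes of similar signal. ALDH5A1, which oxidises succinic semialdehyde made from the neurotransmitter GABA, had 5.53 in the HIF2A cells and 5.77 in the vector control cells, a difference of -0.24.

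The partners of these 3 enzymes went both ways. Of 13 genes of valine, pyrimidine and propionate breakdown past the filter, 8 were higher and 5 lower, with a median of 0.21 and none at least 1.5-fold apart. MMUT, the methylmalonyl-CoA mutase gene, and DPYD, a pyrimidine-degrading gene, had 0.36 each, and ACAD8 had 0.35. The nearest genes past the filter around ACAD8, on chromosome 11, had a median of 0.26. Those around MMUT and DPYD had -0.08 and 0.02. DBT had -0.41, HIBADH, whose enzyme makes the substrate of ALDH6A1 from valine, -0.31 and HIBCH -0.30. DBT, at 3.85 in the HIF2A cells against 4.26 in the vector control cells, passed the filter through the vector control cells alone. The 20 nearest genes past the filter around HIBADH, on chromosome 7, had a median of -0.30. Of the proline genes, PRODH had 0.38 and OAT 0.06, whereas PYCR3 had -0.51 and PYCR1 -0.14. PRODH, at 4.11 in the HIF2A cells against 3.73 in the vector control cells, passed the filter through the HIF2A cells alone. In the GABA list, GAD1 and GAD2 lay below the olfactory receptor level in both arrays, ABAT did not pass the filter at 3.99 in the HIF2A cells and 3.92 in the vector control cells, and AKR7A2 was the 1 gene that passed it.

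ALDH1A1 encodes a cytosolic enzyme that makes retinoic acid from retinal and whose activity is used to sort stem and progenitor cells. It had 2.80 in the HIF2A cells and 3.18 in the vector control cells, both below the olfactory receptor level, so no fold is given. The related retinal-oxidising genes ALDH1A2 and ALDH1A3 had 3.78 and 4.34 in the HIF2A cells, against 3.95 and 4.51 in the vector control cells. A dimmer probe set of ALDH1A3 had 3.54 against 4.13, the first below the olfactory receptor level, so that its difference was at most -0.55 log2 units, and the brighter had a difference of -0.17. Of 7 retinoid genes past the filter 4 were higher and 3 lower, with a median of 0.12 and none at least 1.5-fold apart. The retinoid X receptor genes RXRA and RXRB had 0.56 and 0.27 and the retinal reductase gene RDH13 had 0.23. RXRB has 3 probe sets of similar signal, and its dimmer ones had 0.15 and 0.07. RDH10, whose enzyme makes retinal from retinol, had -0.27, the retinoic acid hydroxylase gene CYP26A1 -0.14 and RDH11 -0.08. CYP26A1, at 3.94 in the HIF2A cells against 4.08 in the vector control cells, passed the filter through the vector control cells alone.

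ALDH3A2 encodes the microsomal fatty aldehyde dehydrogenase that is lost in Sjögren-Larsson syndrome. It had 6.5 in the HIF2A cells and 6.67 in the vector control cells, a difference of -0.17. Genes of fatty aldehyde and sphingolipid metabolism had a median of -0.28 over 7 genes past the filter, with 1 higher, 5 lower and 1 equal, and 1 at least 1.5-fold lower. That gene was PHYH, which encodes the peroxisomal enzyme that begins the alpha-oxidation of phytanic acid, with 4.24 in the HIF2A cells against 4.84 in the vector control cells. The sphingosine phosphate phosphatase gene SGPP1 had -0.56, and HACL1, the lyase gene of alpha-oxidation that releases a fatty aldehyde, -0.42. FAR1, a fatty acyl-CoA reductase gene, had 0.15. The gene at the list median had 3.90 in the HIF2A cells against 4.18 in the vector control cells. It passed the filter through the vector control cells alone.

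ALDH9A1 encodes the enzyme that oxidises an aldehyde intermediate of carnitine synthesis and can also make GABA from its aldehyde. Its signal was 7.69 in both arrays. Upstream of it, TMLHE, the gene of the first enzyme of carnitine synthesis, had 5.88 in the HIF2A cells against 5.09 in the vector control cells, 1.73-fold higher. The carnitine uptake gene SLC22A5 had 5.21 against 4.41, 1.74-fold higher, and the 20 nearest genes past the filter around it, on chromosome 5, had a median of 0.31. These were the 2 genes at least 1.5-fold higher of 5 past the filter in the carnitine, choline and betaine list, with a median of 0.09. That median was -0.02 without a filter and -0.12 after subtracting the median of 20 neighbours from each gene, so no direction is given for the list. BHMT2 had 0.09, CHDH -0.03 and the choline transporter gene SLC44A1 -0.16. CHDH passed the filter through the vector control cells alone. The nearest genes past the filter around BHMT2, also on chromosome 5, had a median of 0.47. Those around CHDH and SLC44A1 had 0.09 and 0.04.

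Oxidation of polyamines and other amines yields aldehydes on which several members act. The list taken here also holds genes of polyamine synthesis and acetylation, so its counts do not describe amine oxidation alone. Of its 9 genes past the filter 4 were higher, 4 lower and 1 equal, with a median of 0. AOC3, a cell surface amine oxidase gene, had 4.54 in the HIF2A cells against 5.74 in the vector control cells on its brighter probe set, a difference of -1.20. Its other probe set had 3.85 against 3.23, with the vector control signal below the olfactory receptor level, which makes it higher by at least 0.26 log2 units. The probe sets of AOC3 thus go opposite ways, the second at dim signals. AMD1, which encodes a decarboxylase of polyamine synthesis, had 7.12 in the HIF2A cells against 6.38 in the vector control cells, 1.67-fold higher. The spermine oxidase gene SMOX had -0.45 and SAT2 -0.16, while PAOX had 0.19 and SRM 0.15.

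**Figure D4:**
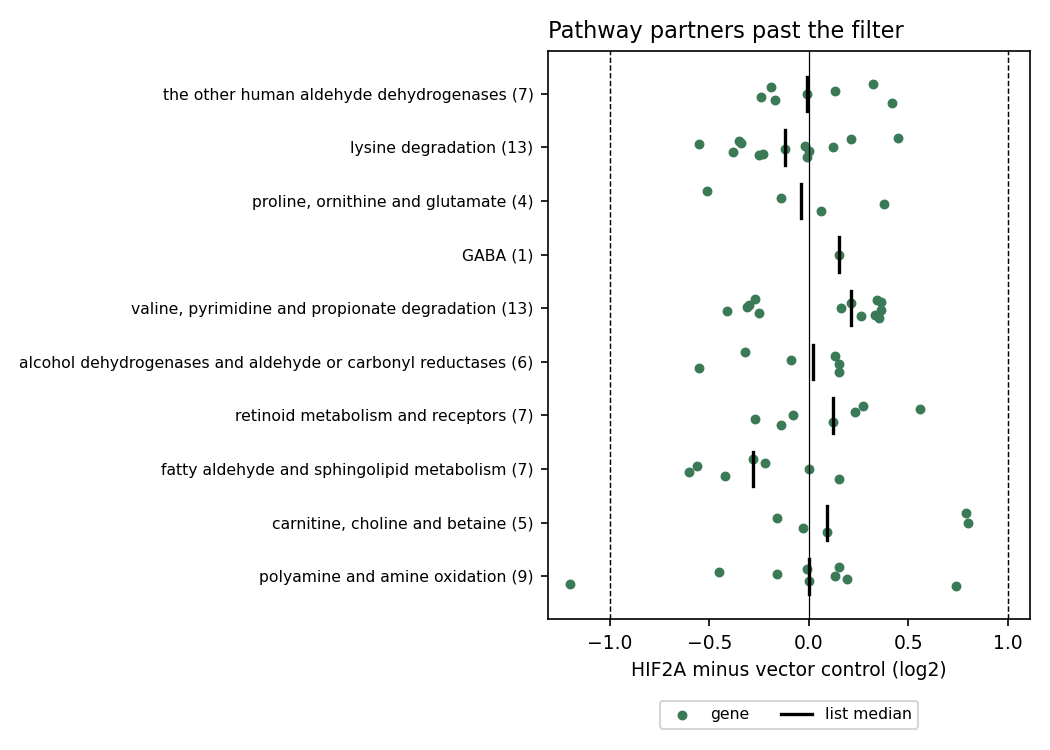
Difference, HIF2A minus vector control in log2 units (horizontal axis), of each gene past the filter in 10 lists (rows, with the number of genes), 1 point per gene and a bar at the list median. All points but AOC3, at -1.20, lie between the dashed 2-fold lines.

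ALDH16A1 encodes a member of the family that in mammals lacks the catalytic cysteine. It had 5.63 in the HIF2A cells and 5.37 in the vector control cells, a difference of 0.26. On their brightest probe sets, the 9 human aldehyde dehydrogenase genes outside the set had differences from -0.24 to 0.42. Of these 4 were higher and 5 lower, and none was at least 1.5-fold apart. The dimmer probe set of ALDH1A3, at most -0.55, lay outside that range. The highest was ALDH18A1, which encodes the enzyme that begins proline synthesis from glutamate, with 8.54 in the HIF2A cells against 8.12 in the vector control cells. ALDH3B2 had 4.03 against 3.71 and ALDH3A1 4.38 against 4.25. The folate enzyme genes ALDH1L1 and ALDH1L2 had -0.24 and -0.01, and ALDH3B1 had -0.19. ALDH1L1 passed the filter through the vector control cells alone, and ALDH3B2 through the HIF2A cells alone. ALDH8A1, counted as higher, lay below the olfactory receptor level in both arrays, and ALDH1A2, counted as lower, did not pass the filter. Across all 19 human genes the median difference was -0.01, and ALDH7A1 and ALDH2 were the 2 at least 2-fold apart.

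**Figure D5:**
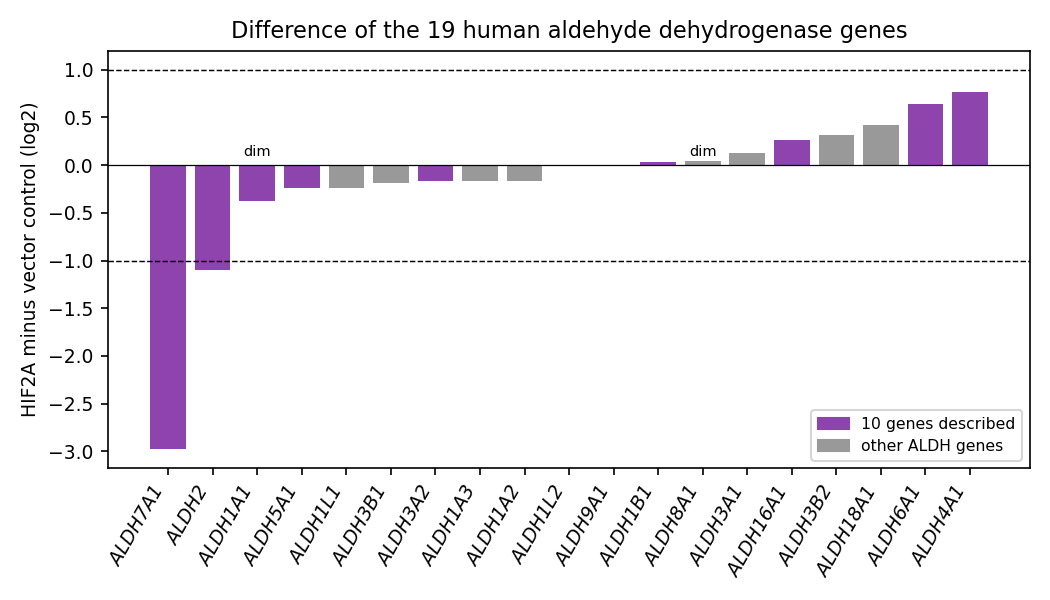
Difference, HIF2A minus vector control in log2 units (vertical axis), of the 19 human aldehyde dehydrogenase genes in order of that difference, purple for the 10 genes described and grey for the other 9. Dashed lines mark 2-fold, "dim" marks the genes below the olfactory receptor level in both arrays, and the bars run from -2.98 for ALDH7A1 to 0.77 for ALDH4A1, whose vector control signal is below that level.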

How the data were processed

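The authors deposited log2 signals for 28869 probe sets. Per the submitters' processing notes, Affymetrix Expression Console made them. Its version, algorithm, scaling and centring are not stated in the sources used. That the log has base 2 was inferred from the highest value, 13.97, because the natural log of a 16-bit scanner's top reading is 11.09.

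Of the probe sets, 19310 carry a single gene symbol, and 19279 of these were matched by Entrez number to RefSeq on GRCh38.p14, used for names, gene order and promoters. A gene took its probe set with the highest mean signal. The filter, 4.01, is the median of all probe sets' mean signals. Differences are HIF2A minus vector control. A signal under the 95th percentile of 359 olfactory receptor genes was replaced by that percentile to give the fold as a bound. The robust SD is the scaled median absolute deviation.

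Alternatives were quantile, median and loess scaling (span 0.3), 32 added on the linear scale, filters at the 25th and 75th percentiles or none, other probe set choices, folds of 1.5 and 3, a floor at the olfactory receptor level and subtraction of the median of 20 neighbours past the filter. Named are all members, the 9 other family genes, EPAS1, up to 3 genes each way per list, 3 neighbours on each side of ALDH7A1 and the 3 genes nearest to it in difference. AASS, GAD1, GAD2, ABAT, CHSY3, FEM1C, DMXL1 and TNFRSF17 were named outside this rule after their values were seen. Members and lists were chosen with earlier results of these data known. The code was tested on simulated data. The tools were Python 3.11.15 with pandas 2.3.3, numpy 2.4.6, statsmodels 0.14.6, scipy 1.17.1 and matplotlib 3.10.9.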

Additional observations from a re-analysis of the deposited data

How the results depend on the processing

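No paired analysis was possible because each group has 1 array, and for the same reason no replicate could be left out. ALDH7A1 lay between -3.20 and -1.89 over 11 settings. The filters, the probe set choices and the floor could not move it from -2.98. It has 1 probe set, passes every filter and lies above the olfactory receptor level in both arrays. Its difference was -1.89 when 32 was added on the linear scale. With that offset 1 member was at least 2-fold lower and 1 at least 1.5-fold apart, and the fatty aldehyde and sphingolipid list had a median of -0.10. It moved ALDH2, ALDH4A1 and ALDH6A1 to -0.42, 0.24 and 0.29, which follows from its shrinking of dim genes. With the filter at the 75th percentile, which drops ALDH1A1, ALDH2, ALDH4A1 and ALDH6A1, 1 member was at least 2-fold lower and 1 at least 1.5-fold apart. At 1.5-fold 2 members were higher, and at 3-fold 1 was lower. Under no filter, and under one at the 25th percentile, the lysine list had a median of -0.02 in both and the alcohol and reductase list -0.17 and -0.32, opposite in sign to its 0.02. A filter changes such medians only through the genes that enter. After subtracting 20 neighbours, which was chosen for the lists after seeing the data, the lysine list had -0.005, the valine list 0.11 and the carnitine list -0.12, opposite to its 0.09, as was -0.02 without a filter. The differences of the 9 other members moved by less than the robust SD in 90 of 94 values, and the filter and most probe set settings could not move them. With the floor, ALDH1A1 came to -0.01.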
